A study of Mus musculus with 4 samples.

Results

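The translation initiation factors were examined in mouse fibroblasts depleted of Setd2. Members were the protein-coding transcripts whose gene symbol begins with Eif followed by a digit from 1 to 5, which leaves out Eif6. The rule took 116 of 34200 transcripts tested, from 54 of 21945 genes. NIH/3T3 is an immortalised line of mouse embryonic fibroblasts. KD cells were co-transfected with a pair of Setd2-specific siRNAs and WT cells with a non-targeting Scrambled siRNA, each at 10 nM, and RNA was collected after 48 h. A knockdown of this kind lowers the mRNA without removing the gene. The siRNAs were given together, so the effects of either alone cannot be told apart. Polyadenylated RNA was sequenced from 2 KD and 2 WT libraries. The p-values measure the spread between these libraries only.

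Initiation begins when eIF2, bound to GTP, brings the initiator tRNA to the small ribosomal subunit together with eIF1, eIF1A, eIF3 and eIF5. The cap-binding eIF4 factors bring this complex to the mRNA, and eIF5B joins the large subunit once the start codon is found. The exchange factor eIF2B reloads eIF2 with GTP, and 4 kinases that phosphorylate eIF2 under stress block that step.

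Setd2, which encodes the enzyme that trimethylates H3K36, was lower in the libraries labelled as knockdown. Its transcript stood at 3680 normalised estimated counts in WT and 923.3 in KD, a log2(fold change) of -1.99 (SE 0.08, pooled SD within groups 0.05, 95% confidence interval -2.21 to -1.78, limma adjusted p = 0.0144). Levels throughout are group means of the log values of 2 libraries, converted back to counts, and a positive log2(fold change) means higher in KD. The fibroblast label was checked on marker genes. The 8 fibroblast markers had a summed level of 1011392 in WT and 912174 in KD. Of 4 epithelial markers, 2 had rows that were tested, with a summed level of 119.4 in WT and 157.8 in KD. The 3 haematopoietic markers summed to 477.8 in WT and 495.2 in KD, and the 3 endothelial markers to 57.28 and 84.09. No marker of these 3 lists was called. Among the fibroblast genes the collagens Col1a1, Col1a2 and Col3a1 had a transcript called lower, with gene-level log2(fold changes) of -0.68, -0.68 and -0.92. The matrix protein gene Fn1 and the receptor gene Pdgfra had transcripts called higher, with gene-level values of 0.49 and 0.60. Vim, an intermediate filament gene and the most abundant of the 8 per length, stood at 134742 counts in WT and 140478 in KD. The part of these changes in the values below was not tested.

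More initiation factor transcripts rose than fell. A transcript was called at an adjusted p under 0.05 in limma's moderated test over all 34200 transcripts. By this rule 23 of the 116 members (19.8%) were called higher in KD, against 5.44% of all transcripts, and 3 (2.59%) were called lower, against 4.24%. Calls were more frequent among abundant transcripts, and the members were abundant. Of 69 members whose mean reached 1000 normalised estimated counts, 18 (26.1%) were called higher and 3 (4.35%) lower, against 13.7% and 7.08% of the 9010 transcripts above the same limit. Counted by gene, 18 of 54 had a transcript called higher and 3 had one called lower, against 10.7% and 7.99% of the 14776 genes with a protein-coding transcript tested, and no member gene had calls in both directions. The median log2(fold change) of the members was 0.32, against -0.01 over all transcripts. Above the limit of 1000 the medians were 0.28 and 0.10. Differences were positive in 90 of 116 members and 16821 of 34200 transcripts, and above the limit in 54 of 69 and 5503 of 9010. The largest called size was 1.27 and the smallest 0.31, with adjusted p-values from 0.0165 to 0.0464. In every called member the KD and WT libraries did not overlap. Over all members, 82 of 116 (70.7%) were separated in this way, against 54.8% of all transcripts, and 54 of the 69 above the limit of 1000 (78.3%), against 71.7% of all transcripts above it. Separation could not be determined for 7 of the 116 members and 3762 of the 34200 transcripts. Above the limit these numbers were 3 of 69 and 704 of 9010. Such transcripts were counted as not separated. The calls rested on moderation of the variances. Without it, or without the trend of the variance on the mean, 0 members were called by limma's test, although 35 and 41 members, respectively, had an unadjusted p under 0.05. When differences were centred on classes of transcript GC content, 13 of the 26 called members stayed called. Among these, Eif1ad had no matched sequence and so was not centred. The calls of Eif1, Eif3b, Eif3d, Eif3e, Eif3g, Eif4a2, Eif4a3, Eif4e2, Eif4ebp2 and Eif4h, 1 of the 2 of Eif4g1 and 2 of the 5 of Eif5a were lost, at sizes that then lay between 0.19 and 0.65. Eif1ax and a transcript of Eif4e gained a call.

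**Figure D1:**
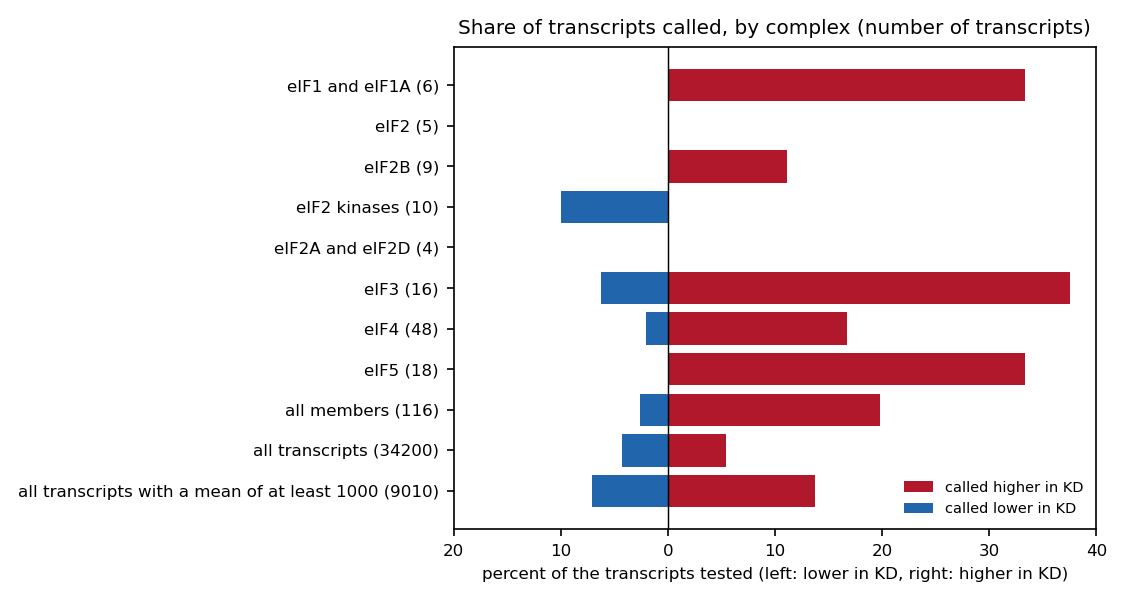
Share of transcripts called higher (right) or lower (left) in KD, in percent of the transcripts tested, for each complex, all 116 members, all 34200 transcripts and the 9010 transcripts whose mean reached 1000 counts. In eIF3 37.5% were called higher, and eIF2 had no call in either direction. The shares are those without centring on GC classes.

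All 6 transcripts with Eif1 symbols had positive differences, and the 4 with a matched sequence stayed positive after centring on GC classes. Of these 6, 2 (33.3%) were called higher and none lower. The shares were 5.44% and 4.24% of all transcripts, and 13.7% and 7.08% of those above the limit of 1000. Eif1, which guards the fidelity of start codon choice, rose from 18697 in WT to 25722 in KD (log2(fold change) 0.46, SE 0.09, limma adjusted p = 0.0449). Only 62.8% of the 31-base words of its transcript are found in no other gene, so its reads may be shared. Eif1ad, which encodes a protein with an eIF1A-like domain, rose from 4644 to 7769 (0.74, SE 0.07, adjusted p = 0.0187). Eif1a, Eif1ax and Eif1b were not called, with log2(fold changes) between 0.17 and 0.22. Centring on GC classes moved Eif1ax to 0.44 with a call (limma adjusted p = 0.0469), an Eif1a transcript to 0.43 and Eif1b to 0.07, without calls. The sequence of an Eif1a transcript is wholly contained in another gene of the same name, so its values are uncertain.

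eIF2 carries the initiator tRNA and has the subunits alpha (Eif2s1), beta (Eif2s2) and gamma (Eif2s3x and Eif2s3y). None of its 5 transcripts was called, where 5.44% of all transcripts were called higher and 4.24% lower. The log2(fold changes) of the 5 lay between -0.20 and 0.17, with a median of 0.11. Eif2s2 was the most abundant per length, at 10027 normalised estimated counts per kb in WT and 11016 in KD, with a log2(fold change) of 0.14 (95% confidence interval -0.11 to 0.38). Eif2s1, the subunit that the stress kinases phosphorylate, stood at 16351 in WT and 14274 in KD, a difference of -0.20 (interval -0.42 to 0.03). The gamma subunits on the X and Y chromosomes differed by 0.17 and -0.19. Centring on GC classes moved all 5 transcripts upwards, Eif2s1 to 0.03, Eif2s3y to 0.06, Eif2s2 to 0.31 and the Eif2s3x transcripts to 0.33 and 0.25, so the sign of Eif2s1 and Eif2s3y and the size of the others depended on the scaling. None of them was called there either. Only 67.9% of the words of Eif2s2 and 63.1% and 14.8% of those of the Eif2s3x transcripts are their own, so their levels and differences are uncertain.

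eIF2B returns eIF2 to its GTP-bound form. Of its 9 transcripts, 1 (11.1%) was called higher, near the background of 5.44% of all transcripts and 13.7% of those above the limit of 1000, and none lower, with a median log2(fold change) of 0.38. Eif2b2, the regulatory beta subunit, had 2771 counts in WT and 5016 in KD, which is 1.81 times as much (log2(fold change) 0.86, SE 0.07, pooled SD 0.04, interval 0.67 to 1.04, limma adjusted p = 0.0165). Its transcript lies on chromosome 12 at 85219481 to 85226628 (GRCm38, plus strand), and all of its 31-base words are its own. The other subunits were not called. Eif2b5, the catalytic epsilon subunit, was the most abundant of the complex per length over both groups (2274 counts per kb in WT, 2778 in KD) and differed by 0.29 (adjusted p = 0.0798). The gamma subunit Eif2b3 differed by 0.28 in its main transcript, the delta subunit Eif2b4 by 0.32 and the alpha subunit Eif2b1 by -0.04. Centring on GC classes moved Eif2b2 to 0.65, still called (limma adjusted p = 0.0261). The same centring moved Eif2b5 to 0.19, the main transcripts of Eif2b3 to 0.34 and Eif2b4 to 0.13, and Eif2b1 to -0.08.

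Of the 4 kinases, Eif2ak2 was called lower and none was called higher. This was 1 of the 10 kinase transcripts (10%), near the background of 4.24% of all transcripts and 7.08% of those above the limit of 1000. For calls higher the background was 5.44% and 13.7%. Eif2ak2 encodes PKR, which is activated by double-stranded RNA. Its level was 3383 in WT and 1779 in KD, and it fell by 0.93 on the log2 scale (SE 0.08, pooled SD 0.07, interval -1.15 to -0.71, limma adjusted p = 0.0183). Centring on GC classes moved Eif2ak2 to -0.77, still called (limma adjusted p = 0.0267). The transcript lies on chromosome 17 at 78852564 to 78882573 on the minus strand. The haem-regulated kinase Eif2ak1 differed by 0.10, and Eif2ak3, the kinase of the endoplasmic reticulum, by 0.02 (-0.01 after centring on GC classes). Eif2ak4, which responds to uncharged tRNA, was the most abundant kinase gene per length, at 1117 counts per kb in WT and 1053 in KD. Its 7 transcripts ranged from -1.53 to 0.60 with no call, and the main one differed by -0.21 (adjusted p = 0.217). Both ends of this range are uncertain. The lowest had a mean of 23.2 counts, and an SD from the assignment of reads to transcripts of 1.16 against 0.35 within groups. The highest had a mean of 147.4 counts. The 2 further genes with Eif2 symbols supply other routes of tRNA delivery. Eif2a differed by 0.04 and the main transcript of Eif2d by 0.14, and none of their 4 transcripts was called. Centring on GC classes moved these 2 values to 0.18 and 0.04.

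**Figure D2:**
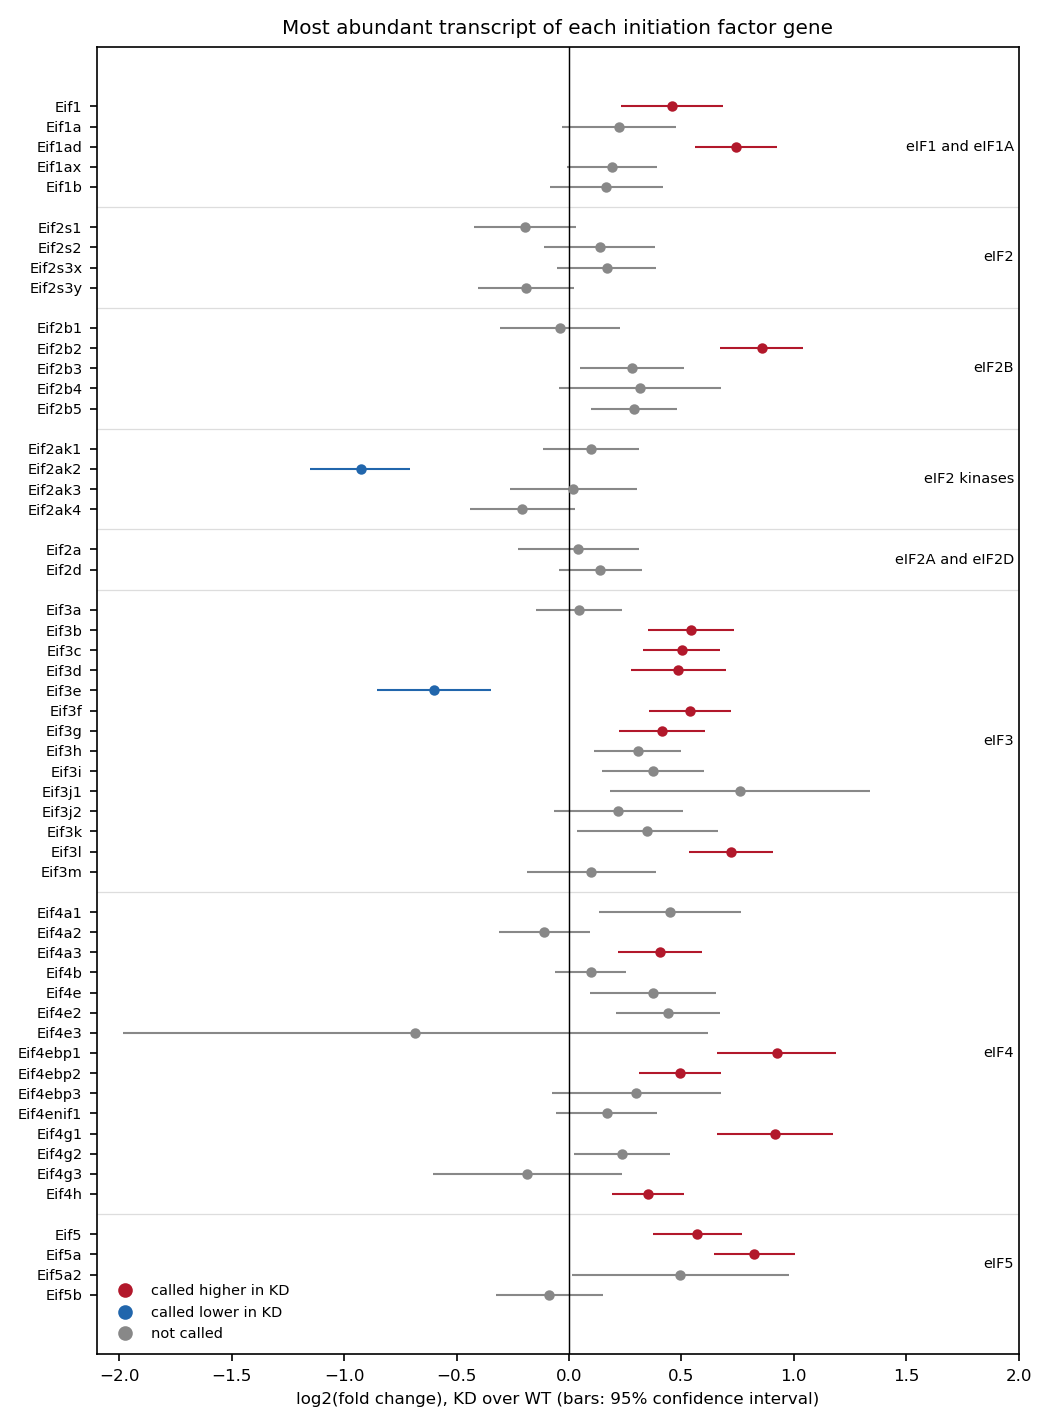
log2(fold change) of KD over WT for the most abundant transcript of each gene, grouped by complex, with 95% confidence intervals. Red points were called higher, blue points lower and grey points not called. Eif4e1b, which had few counts, is not drawn.

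eIF3 is the largest initiation factor and holds the small subunit ready for mRNA. It had 16 transcripts of 14 genes, of which 6 (37.5%) were called higher and 1 (6.25%) lower, and 15 of the 16 differences were positive. The shares called were 5.44% and 4.24% of all transcripts, and 13.7% and 7.08% of those above the limit of 1000, which not every eIF3 transcript reached. The median log2(fold change) of the 16 was 0.45. In the core of the complex, Eif3b rose by 0.54 (13448 to 19603 counts, SE 0.07, adjusted p = 0.0267) and Eif3c by 0.50 (23154 to 32780, SE 0.07, adjusted p = 0.0260). Eif3a, the scaffold on which the others assemble, was not called, at 48317 in WT and 49862 in KD (0.05, interval -0.15 to 0.24). The differences between these subunits were not tested.

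Among the other subunits the largest called rise was that of Eif3l, which sits in the outer part of the complex. It had 11992 counts in WT and 19745 in KD (log2(fold change) 0.72, SE 0.07, pooled SD 0.06, interval 0.53 to 0.91, limma adjusted p = 0.0190). Eif3d, which can bind the mRNA cap, rose by 0.49 (SE 0.08, adjusted p = 0.0363). Eif3f rose by 0.54 (SE 0.07, adjusted p = 0.0258) and Eif3g by 0.41 (SE 0.07, adjusted p = 0.0405). Eif3e was the exception. It stood at 25411 counts in WT and 16781 in KD, and fell by 0.60 on the log2 scale (SE 0.10, pooled SD 0.12, interval -0.85 to -0.35, adjusted p = 0.0350). Only 58.0% of the 31-base words of Eif3e are its own and 30.5% are also in the pseudogene Eif3s6-ps2, so its value is uncertain.

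Eif3h was the most abundant eIF3 gene per length among those with a known transcript length, at 27594 counts per kb in WT and 34112 in KD. It differed by 0.31 and Eif3i by 0.37, with adjusted p-values of 0.0719 and 0.0675. The main transcripts of Eif3k and Eif3m differed by 0.35 and 0.10 and were not called. Only 62.6% of the words of Eif3h and 46.3% of those of the main Eif3m transcript are their own, so their values are uncertain, as is the rank of Eif3h. The loosely bound subunit eIF3j is encoded by a pair of near-identical genes. Eif3j2 differed by 0.22, but only 5.07% of its words are its own, and Eif3j1, with 58.7%, differed by 0.76 at a low level (256.4 in WT, 435.1 in KD), without a call. After centring on GC classes, 3 eIF3 transcripts remained called higher (Eif3c, Eif3f and Eif3l) and none lower, and the median of the complex was 0.35. Eif3b and Eif3g were then at 0.32 and 0.19, and Eif3j2 and the main transcript of Eif3m at 0.39 and 0.20.

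**Figure D3:**
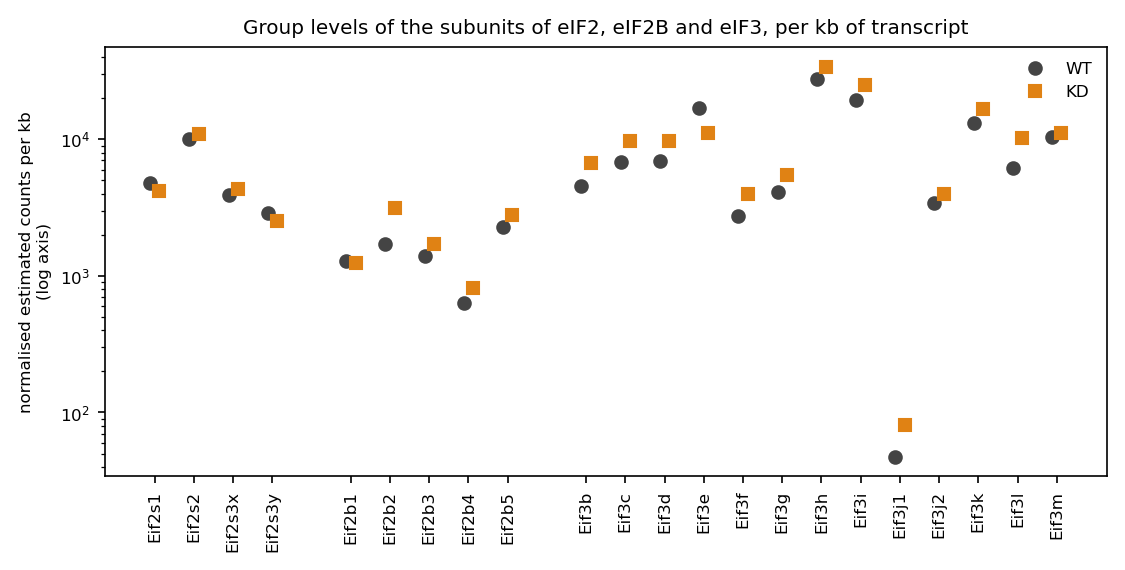
Group levels in WT (circles) and KD (squares) of the genes of eIF2, eIF2B and eIF3, in normalised estimated counts per kb of transcript on a log axis, summed over the transcripts of a gene, with 2 libraries in each group. Eif3a is not drawn, since its transcript was not matched to a length. Eif3e is the eIF3 gene with the KD point below the WT point.

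eIF4 brings the ribosome to the cap. Its 48 transcripts came from 16 genes, of which 8 transcripts (16.7%) were called higher and 1 (2.08%) lower, against 5.44% and 4.24% of all transcripts and 13.7% and 7.08% of those above the limit of 1000, with a median log2(fold change) of 0.30. The factor holds the RNA helicase eIF4A, the cap-binding protein eIF4E and the scaffold eIF4G. Eif4a1, the main helicase, was the most abundant eIF4 gene per length, at 32074 counts per kb in WT and 43767 in KD. It differed by 0.45 (SE 0.12, adjusted p = 0.0890), and 32.5% of its words are its own, with the pseudogene Eif4a-ps4 as the closest match. Eif4a2, its paralogue, had the only called fall of the group. A transcript of 1238 bases went from 10690 to 8129 counts, falling by 0.40 on the log2 scale (SE 0.07, adjusted p = 0.0444), while its main transcript differed by -0.11 without a call and by 0.06 after centring on GC classes. Eif4a3, a helicase of the exon junction complex, rose by 0.40 (SE 0.07, adjusted p = 0.0405). Only 66.1% of the words of the called Eif4a2 transcript and 55.2% of those of Eif4a3 are their own, so both values are uncertain.

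The cap-binding genes gave 1 call in 13 transcripts (7.69%), a rise. This is near the background of 5.44% of all transcripts called higher, and below the 13.7% of those above the limit of 1000. No transcript of Eif4e was called, and the 4 of them differed by between 0.31 and 0.52. Centring on GC classes moved them to between 0.41 and 0.90, and the one with the largest difference was then called (limma adjusted p = 0.0294), though only 67.1% of its words are its own. In Eif4e2, which encodes a cap-binding repressor, a transcript of 3394 bases rose by 0.49 (SE 0.09, adjusted p = 0.0455). Its most abundant transcript differed by 0.44 (adjusted p = 0.0501). Eif4e3, with a mean of 22.1 counts, and Eif4e1b, with fewer, were not called.

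The proteins that hold eIF4E away from the scaffold included the largest called rise in eIF4. Eif4ebp1 had 4989 counts in WT and 9469 in KD, which is 1.90 times as much (log2(fold change) 0.92, SE 0.10, pooled SD 0.12, interval 0.66 to 1.19, limma adjusted p = 0.0203). The main transcript of Eif4ebp2 rose by 0.49 (SE 0.07, adjusted p = 0.0286). Eif4ebp3, with 33.6% of its words its own, differed by 0.30 without a call, and no transcript of Eif4enif1, the nuclear transporter of eIF4E, was called.

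Of the scaffold genes, Eif4g1 had 7 transcripts, of which 2 were called, with rises of 0.92 (9671 to 18268 counts, SE 0.10, adjusted p = 0.0201) and 0.62 (9124 to 14033, SE 0.10, adjusted p = 0.0353). The other 5 lay between -0.31 and 0.48. Differences between isoforms were not tested. Their reads overlap, and the sum over all 7 went from 36247 to 52879 counts, a difference of 0.54. A long transcript of Eif4g2, which lacks the eIF4E-binding region, rose by 0.31 (SE 0.06, adjusted p = 0.0464), and its main transcript differed by 0.24 without a call. None of the 6 transcripts of Eif4g3 was called. Of the helicase cofactors, the main Eif4h transcript rose by 0.35 (SE 0.06, adjusted p = 0.0393), the other Eif4h transcript differed by -0.16, and the Eif4b transcripts differed by 0.10 and -0.11. Centring on GC classes moved the called Eif4g1 transcripts to 0.80 and 0.51, and only the first stayed called. It moved the main Eif4h transcript to 0.25, which lost its call, and the other Eif4h transcript to -0.38. The main Eif4g2 transcript was then at 0.39 and those of Eif4b at 0.05 and -0.21.

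**Figure D4:**
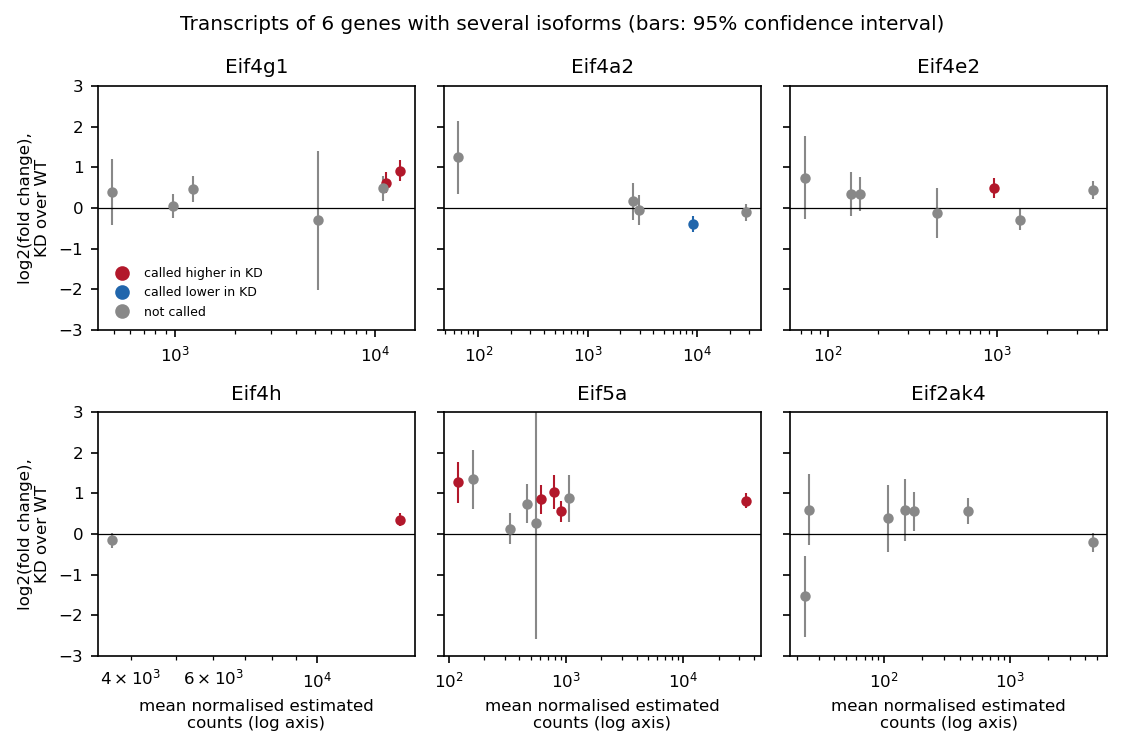
log2(fold change) of KD over WT against the mean normalised estimated count (log axis) of each transcript whose mean reached 20, for 6 genes chosen after their values were seen, with 95% confidence intervals. Called transcripts of Eif5a all lie above 0. The transcripts of Eif4g1, Eif4a2, Eif4e2, Eif4h and Eif2ak4 lie on both sides of 0, before centring on GC classes. Intervals that pass the limits of the axis are cut off.

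Of the 18 transcripts of Eif5 genes, 6 (33.3%) were called higher and none lower, against 5.44% and 4.24% of all transcripts. The shares were 13.7% and 7.08% of those above the limit of 1000, which not every Eif5 transcript reached. Eif5, which triggers GTP hydrolysis by eIF2, rose by 0.57 in its most abundant transcript (8418 to 12507 counts, SE 0.08, adjusted p = 0.0265). Eif5a, whose hypusine-modified protein assists peptide bond formation, had 5 of its 12 transcripts called. The reads of these isoforms overlap, so their calls are not separate observations. The sum over all 12 went from 29805 to 52376 counts, a difference of 0.81. The main Eif5a transcript went from 25905 to 45834 counts (log2(fold change) 0.82, SE 0.07, pooled SD 0.06, interval 0.64 to 1.00, limma adjusted p = 0.0165). The minor transcripts included rises of 1.27 (77.48 to 188.0 counts, SE 0.19, adjusted p = 0.0320), which is the largest of all called members, and 1.03 (554.8 to 1132 counts, SE 0.16, adjusted p = 0.0320). For the first of these the inferential SD, from the assignment of reads to transcripts, was 0.41 against an SD within groups of 0.18, so its size is uncertain. Centring on GC classes moved the main Eif5a transcript to 0.62 and that of Eif5 to 0.71, both still called (limma adjusted p = 0.0269 and 0.0251). The called Eif5a transcripts at 0.56 and 0.85 lost their calls there (adjusted p = 0.0763 and 0.066). Eif5a2 differed by 0.49 (0.88 after centring on GC classes) and Eif5b, the joining factor, by -0.09 (0.05 after centring on GC classes), without calls.

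Promoter sequences from RefSeq (GRCm38.p6, 250 bases before to 50 after the start) were found for 43 of the 54 genes. They are shown for the genes that hold the largest called rise or fall in eIF3, eIF2B and the kinases and have an entry within 50 bases of the transcript start. Eif3e and Eif4ebp1 have no entry. Capitals mark matches, on either strand, to the words searched, and each sequence runs 5′ to 3′ on the strand of the gene.
Eif3l, chr15:79074973-79075272, plus strand: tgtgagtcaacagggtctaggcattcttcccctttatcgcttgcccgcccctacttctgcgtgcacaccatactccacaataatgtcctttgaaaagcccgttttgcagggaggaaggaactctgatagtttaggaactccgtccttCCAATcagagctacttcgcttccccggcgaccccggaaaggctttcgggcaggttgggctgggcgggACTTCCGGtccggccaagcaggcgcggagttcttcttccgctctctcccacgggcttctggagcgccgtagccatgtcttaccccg
Eif2b2, chr12:85219231-85219530, plus strand: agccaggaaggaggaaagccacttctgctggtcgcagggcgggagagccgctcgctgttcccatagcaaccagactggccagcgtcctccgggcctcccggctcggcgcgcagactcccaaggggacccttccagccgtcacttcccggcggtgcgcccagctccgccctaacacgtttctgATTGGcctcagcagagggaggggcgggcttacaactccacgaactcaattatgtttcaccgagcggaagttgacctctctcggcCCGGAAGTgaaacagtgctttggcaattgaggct
Eif2ak2, chr17:78882523-78882822, minus strand: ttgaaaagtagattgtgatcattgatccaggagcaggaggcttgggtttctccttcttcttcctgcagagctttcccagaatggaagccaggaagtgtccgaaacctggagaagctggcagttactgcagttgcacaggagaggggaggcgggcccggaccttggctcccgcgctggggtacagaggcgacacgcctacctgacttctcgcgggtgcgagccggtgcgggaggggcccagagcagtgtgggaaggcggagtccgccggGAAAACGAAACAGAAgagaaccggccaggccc

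In Eif3l and Eif2b2 the capitals are the ETS word CCGGAAGT and the word CCAAT. In Eif2ak2 they are 2 overlapping matches to the interferon-type word GAAANNGAA. CCGGAAGT was in 7 of the 43 member promoters (16.3%) and in 3.89% of all 32817 promoters, and CCAAT in 12 (27.9%) and 37.4%. GAAANNGAA was in 4 (9.3%) and 8.55%. The E-box CACGTG was in 9 (20.9%) and 7.15%, the cAMP response word TGACGTCA in 0 and 1.79%, and the ATF4 word TGATGNAA in 1 (2.33%) and 3.97%. The NRF1 word GCATGCGC was in 3 (6.98%) and 2.71%, and the YY1 word AAGATGGCG in 1 (2.33%) and 1.4%. The members were counted once each, and all promoters were counted per start, so these shares are descriptions.

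Companion genes were set beside the members. Their values and calls are those without centring on GC classes. Among the 7489 gene symbols with a transcript above the limit of 1000, 1153 had such a transcript called higher and 606 lower. Of 14 elongation, termination and recycling genes tested, 2 had a transcript called higher and none lower, where 10.7% and 7.99% of all genes had one. Their median gene-level log2(fold change) was 0.21, against 0.26 for the 54 members and 0.02 over all genes. The calls were a minor transcript of Eef1d, a subunit of the factor that reloads eEF1A (0.59, limma adjusted p = 0.0454), whose main transcript was not called (0.42, adjusted p = 0.0608), and Eef1g (0.33). Among 29 regulators and partners of initiation, 7 had a transcript called higher and 3 lower, against the same 10.7% and 7.99% of all genes. In Mlst8 and Mknk1 only a minor transcript was called, with a mean of 2.85 and 66.3 counts and an inferential SD above the SD within groups. Their main transcripts differed by 0.44 and -0.14 without calls. Rptor, the mTORC1 scaffold, rose from 2284 to 4560 counts (1.00, SE 0.08, limma adjusted p = 0.0165). Pdcd4, an inhibitor of eIF4A, fell by 0.89 in its main transcript (SE 0.11, adjusted p = 0.0239), and Paip2 and Paip2b, which hold the poly(A)-binding protein, fell by 0.56 and 0.70.

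Of 12 genes known to follow eIF2 phosphorylation that were tested, 8 had a transcript called higher and 1 had one called lower as well, where 10.7% and 7.99% of all genes had one. Among symbols with a transcript above the limit of 1000, 1153 of 7489 had such a transcript called higher and 606 lower. Calls of these 12 genes are not given after centring on GC classes, which removed calls among the members. Chac1, which degrades glutathione, rose from 2775 to 6439 counts (log2(fold change) 1.21, SE 0.08, limma adjusted p = 0.0160). Ddit3, which encodes CHOP, rose by 0.98 in its main transcript (SE 0.08, adjusted p = 0.0164), and a minor transcript at 20.48 counts in WT was listed at 0 in KD. This call is uncertain, with a mean of 2.74 counts, a length of 105 bases and an inferential SD of 0.97 against 0.43 within groups. Atf4 itself rose by 0.33 (SE 0.06, adjusted p = 0.0400). The genes without a call were Atf5, Sesn2, Nupr1 and Psat1, with gene-level values of -0.24, 0.07, 0.27 and 0.18. Phosphorylation of eIF2 was not measured.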

How the data were processed

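The authors trimmed reads with BBDuk, quantified transcripts with Kallisto and fitted Sleuth. The deposited means are natural log values of estimated counts divided by a size factor, plus a constant, and the other deposited columns used are variances on that scale. No values of single libraries were used, so depth is unknown. Deposited effects, p-values and q-values are the authors' own comparisons. Their test statistics were not used, but the direction of each difference was read from the sign of the deposited effect. Its size was computed from the deposited variances and is arithmetically the same quantity as the authors' effect, so it is no independent estimate. p-values were recomputed with limma (3.58.1, R 4.3.3), moderated with a trend on the mean and adjusted by Benjamini-Hochberg over all transcripts. Whether libraries overlapped was bounded from the difference and the residual variance. This bound, the limit of 1000 counts and a variance floor were chosen after seeing the data. Members and lists were chosen with earlier results of these data known. Named are Setd2, the called extremes and the most abundant gene of each complex, genes with large or opposed calls, and list extremes. Other members are named by role. Positions and lengths came from GENCODE M21 (98.6% of transcripts matched). Alternatives are given in the closing section.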

Additional observations from a re-analysis of the deposited data

How the results depend on the processing

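No paired analysis was possible because the values used hold no single libraries, and leaving out a library could not be run for the same reason. Without a trend on the mean, 127 transcripts were called in all and 0 members higher and 0 lower. Without moderation these numbers were 10, 0 and 0. Setd2 was then at -1.99 with adjusted p-values of 0.0537 and 0.103. Over the other alternatives that were tested its adjusted p lay between 1.76e-95 and 0.0171, and division by Actb, which was itself called higher (0.46), gave -2.45. With Sleuth's shrunken variance and a normal test, 6233 transcripts were called, against 3312. Of these 3566 were higher, with 39 members higher, against 1861 and 23. A variance floor at the inferential variance, chosen after seeing the data, gave 4996 calls, of which 2961 were higher, with 38 members higher. With differences centred on GC classes there were 2129 calls, with 1144 transcripts and 14 members higher and 985 and 1 lower. Of the 26 called members 13 stayed called and none changed sign, but 9 of the 116 members did, among them the main transcripts of Eif2ak3, Eif2s1, Eif2s3y, Eif4a2 and Eif5b. Calls were gained by Eif1ax and an Eif4e transcript, and 61 members had an unadjusted p under 0.05 against 56 before. The cause of these shifts was not tested. Robust moderation, a mean of at least 100 counts and centring on the median kept all 26 called members. Adding the 2 rows of other categories gave 24 members higher. In 6 of 20 genes with several transcripts, the main transcript alone gave a gene-level value that moved by over 1 SD.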

Other observations

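The symbol rule also matched 2 transcripts outside the protein-coding category. Eif4a-ps4, a processed pseudogene that shares sequence with Eif4a1, had 8356 counts in WT and 15891 in KD (log2(fold change) 0.93, limma adjusted p = 0.0400), with an inferential SD of 0.57 against an SD within groups of 0.23. Eif2c5, a noncoding transcript, had 29.02 counts in WT and 6.573 in KD (-2.06, adjusted p = 0.0521). In 28 of the 116 members, among them 3 called ones (1 transcript of Eif4e2 and 2 of Eif5a), the inferential variance was larger than the residual variance between libraries.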
